A study of Mus musculus with 6 samples.

Results

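The genes described here are Trp53, which encodes the transcription factor p53, 6 genes known to be switched on by it (Mdm2, Ccng1, Trp53inp1, Phlda3, Zmat3 and Aen), and the 3 genes of the Cip/Kip family of cyclin-dependent kinase inhibitors, Cdkn1a (p21), Cdkn1b (p27) and Cdkn1c (p57). Cdkn1a belongs to both sets, being a Cip/Kip gene and a p53 target. Members were all probes that carry 1 of these 10 symbols in the deposited probe table. This gave 15 of the 55681 probes on the array that are not controls. The question was whether Cdkn1a, which was higher in trichloroethylene (TCE) treated liver, was accompanied by other p53 targets. The control group was 3 male B6C3F1 mice given corn oil by gavage, and the TCE group was 3 male B6C3F1 mice of the same age, 7 weeks, given TCE in corn oil daily for 5 days at 1000 mg/kg b.w. B6C3F1 mice are first-generation hybrids with no engineered allele, and both groups received the same vehicle for the same time. Whole liver RNA of each mouse was hybridized to its own 1-colour array, and none was pooled.

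p53 is a transcription factor that is held at a low level by the ubiquitin ligase Mdm2 and is stabilized when DNA is damaged or cells are stressed, mostly through the protein rather than its mRNA. It binds paired half-sites near its targets, one of which is Mdm2 itself, so that the pathway forms a negative feedback loop. The p21 protein binds cyclin and cyclin-dependent kinase complexes and PCNA and halts the cell cycle. p27 and p57 share its kinase-binding region but are controlled in other ways. In liver, p21 is known to be produced after injury and during regeneration, and its gene also responds to factors other than p53.

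The promoter windows of 4 of the genes are shown because they hold, or lack, the kind of half-site that p53 is known to bind. They come from RefSeq on GRCm38.p6 and run from 250 bases before to 50 bases after the annotated start, 5′ to 3′ on the strand of the gene. Capitals mark exact matches to the p53 half-site consensus, which is the same on both strands. The first Cdkn1a window belongs to the upstream start and the second to the downstream start.
Cdkn1a, upstream start, chr17:29090729-29091028, plus strand: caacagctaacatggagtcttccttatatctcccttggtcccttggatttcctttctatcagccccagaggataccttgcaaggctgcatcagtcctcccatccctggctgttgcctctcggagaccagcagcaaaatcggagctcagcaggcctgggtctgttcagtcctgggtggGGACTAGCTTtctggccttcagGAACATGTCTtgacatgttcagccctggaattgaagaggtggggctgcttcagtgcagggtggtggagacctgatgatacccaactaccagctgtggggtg
Cdkn1a, downstream start, chr17:29093519-29093818, plus strand: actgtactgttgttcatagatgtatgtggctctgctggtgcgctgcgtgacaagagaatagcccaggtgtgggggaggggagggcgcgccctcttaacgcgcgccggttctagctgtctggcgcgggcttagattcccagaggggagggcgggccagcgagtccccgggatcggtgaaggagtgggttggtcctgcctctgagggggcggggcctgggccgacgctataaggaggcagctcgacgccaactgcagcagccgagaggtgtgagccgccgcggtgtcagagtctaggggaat
Mdm2, chr10:117710709-117711008, minus strand: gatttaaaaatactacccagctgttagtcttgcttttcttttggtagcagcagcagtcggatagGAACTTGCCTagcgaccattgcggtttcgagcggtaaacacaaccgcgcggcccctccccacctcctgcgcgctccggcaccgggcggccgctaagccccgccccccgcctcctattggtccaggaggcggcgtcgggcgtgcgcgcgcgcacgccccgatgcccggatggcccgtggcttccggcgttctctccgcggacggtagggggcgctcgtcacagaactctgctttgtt
Ccng1, chr11:40755237-40755536, minus strand: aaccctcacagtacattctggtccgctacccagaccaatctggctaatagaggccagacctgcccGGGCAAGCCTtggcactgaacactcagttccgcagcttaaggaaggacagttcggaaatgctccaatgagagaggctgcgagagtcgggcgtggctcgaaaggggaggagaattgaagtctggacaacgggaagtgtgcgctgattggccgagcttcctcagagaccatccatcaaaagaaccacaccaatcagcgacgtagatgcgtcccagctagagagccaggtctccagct
Aen, second of 2 windows, chr7:78895808-78896107, plus strand: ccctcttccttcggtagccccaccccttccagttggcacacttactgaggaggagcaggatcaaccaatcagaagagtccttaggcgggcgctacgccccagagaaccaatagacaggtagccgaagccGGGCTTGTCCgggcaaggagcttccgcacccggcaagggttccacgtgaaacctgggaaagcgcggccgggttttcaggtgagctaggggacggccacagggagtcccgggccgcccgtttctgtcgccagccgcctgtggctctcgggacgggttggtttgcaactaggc

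Of the 10 genes, 7 had a window in the table, with 9 windows between them, and 5 of the 7 held a match. Trp53inp1, Zmat3 and Cdkn1c had none in the table. The upstream Cdkn1a window held 2 matches, which began 73 and 51 bases before the start, while the downstream window held 0. Only 0.359% of the 32851 windows in the table held more than 1 match, and 8.36% held any. Counted by gene, 9.55% of the 27025 genes in the table had a match in any window. Mdm2 had a match 186 bases and Ccng1 185 bases before the start, and the Aen match lay 121 bases before the start used above. Trp53 also had 1, 75 bases before its start, and the windows of Phlda3 and Cdkn1b had 0. The downstream Cdkn1a window held 23 CG pairs against 2 in the upstream window and a median of 7 over all windows. These are matches of letters and were not tested as binding sites.

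Each value below is a log2 signal, that is the log2 of the background-subtracted intensity after quantile normalization of the 6 arrays. Levels of different probes cannot be set against each other, so comparisons between genes use each gene's difference from its own control mean. A probe counted as detected if the scanner software marked it well above background in all 3 mice of either group, and a gene with several detected probes was represented by the brightest. This left 22736 probes and 13288 genes, among them 12 of the 15 probes and all 10 genes. The arrays held 23538 to 24971 probes well above background and 0 saturated spots, and Pearson's r over detected probes was 0.987 to 0.990 among controls, 0.978 to 0.987 among TCE mice and 0.971 to 0.982 between groups. Control mouse 1 was alone on slide 1 and the other 5 mice shared slide 2. A call needed a limma adjusted p of 0.05 or less (two-sided, Benjamini-Hochberg over all detected probes) and a difference of 2-fold or more. Probe positions are those of mm9 in the deposited table, which places Phlda3 on chromosome 1, Zmat3 on 3, Trp53inp1 on 4, Cdkn1b on 6, Aen and Cdkn1c on 7, Mdm2 on 10, Trp53 and Ccng1 on 11 and Cdkn1a on 17. All p-values and adjusted p-values below are from that limma fit unless an exact test is named. With 3 mice per group, the exact permutation test of a single probe cannot give a p below 0.1.

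Cdkn1a was about 4-fold higher in TCE liver, with every TCE mouse above every control, yet it stayed just short of the adjusted threshold. In whole liver, fewer cells of a type and less RNA per cell cannot be told apart, and this holds for every gene below. The log2 signal of its detected probe, on chromosome 17 at 29237377 to 29237436 of mm9, was 7.01, 7.47 and 6.57 in control mice 1, 2 and 3 and 8.77, 8.55 and 9.72 in TCE mice 1, 2 and 3. TCE mouse 3 was the highest, and the spread within the TCE group, with an SD of 0.62, was the widest of the 10 genes. The group means of 7.02 ± 0.45 and 9.01 ± 0.62 (SD, n = 3 each) gave a log2 fold change of 1.99 ± 0.36 (SE), or 3.99-fold with a 95% interval of 2.17 to 7.32 (exact permutation p = 0.1, limma adjusted p = 0.0568). By size of change Cdkn1a stood at place 99 of the 13288 genes. Adjusted p was 0.0382 after another background correction (normexp), which lowered the log2 fold change to 1.57, and 0.0354 with another variance model, so that Cdkn1a was called under those settings and not under the other adjusted limma fits. With slide as a block the log2 fold change was 1.99 (adjusted p = 0.146), and within slide 2 it was 2.00 (adjusted p = 0.153). Leaving out 1 mouse at a time gave 1.64 to 2.23, with adjusted p from 0.0801 to 0.154.

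The Cdkn1a probe was printed 10 times on each array, and the spots show the noise between spots of 1 array. Before normalization between arrays, the SD over the spots used was 0.043 to 0.162 on the log2 scale. In control mouse 1, 3 of the 10 spots carried an outlier flag and were left out, and in the other mice 0 did. As each mouse had 1 array, errors of labelling and hybridization cannot be told apart from differences between mice. The other probes for Cdkn1a, one for the transcript variant 2 and one for a separately deposited cDNA, did not rise well above background on any array, with log2 signals of 2.50 to 4.17 and 2.57 to 3.26. The detected probe also matches variant 2, and the signal cannot be assigned to one transcript.

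**Figure D1:**
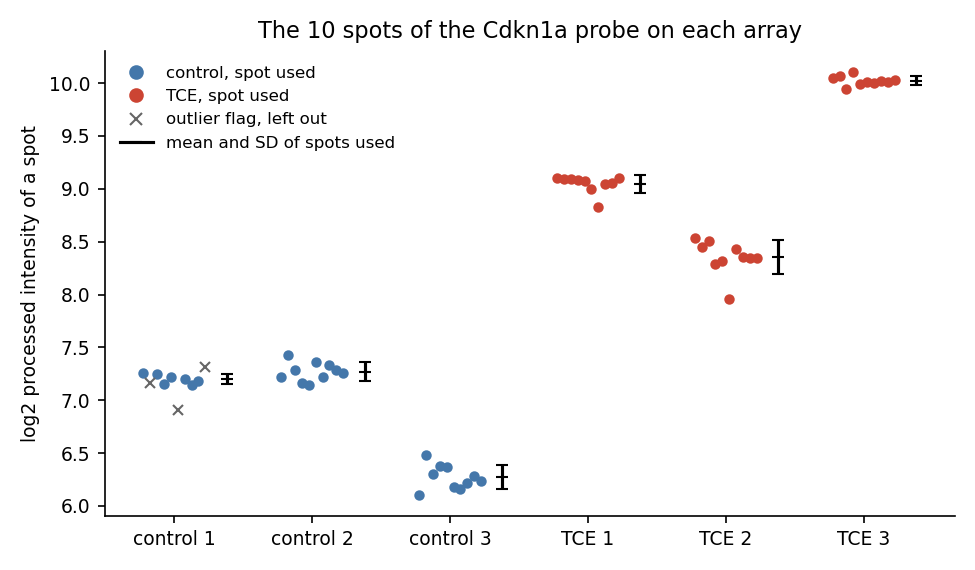
Points give the log2 processed intensity of each of the 10 spots of the Cdkn1a probe on each array (x axis: mouse), before normalization between arrays. Crosses are spots left out for an outlier flag, and bars are the mean and SD of the spots used. Every TCE spot used lies above every control spot, and spots of 1 array lie close together.

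Trp53 itself had a low but detected signal, read from 2 spots per array on chromosome 11. Its log2 signal was 5.61, 5.70 and 5.29 in the control mice and 5.97, 6.11 and 6.02 in the TCE mice. The groups did not overlap, but the step between them was small. The log2 fold change was 0.50 ± 0.14 (SE, 95% interval 0.16 to 0.84, limma adjusted p = 0.148). With normexp it was 0.20 (limma adjusted p = 0.369).

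Mdm2, the ligase that marks p53 for destruction and is itself a target, was 11.53, 11.40 and 11.71 in the control mice and 11.92, 12.24 and 11.83 in the TCE mice. All 3 TCE mice lay above the controls, TCE mouse 2 by the most, while the gap between control mouse 3 and TCE mouse 3 was the narrowest. The log2 fold change was 0.45 ± 0.16 (SE), or 1.37-fold with a 95% interval of 1.05 to 1.77 (limma adjusted p = 0.213). With normexp it was 0.29.

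Ccng1 encodes cyclin G1, which recruits a phosphatase that acts on Mdm2, and is widely used as a readout of p53 in rodent liver. The control mice had log2 signals of 8.96, 9.04 and 8.93 and the TCE mice 9.14, 9.07 and 9.44. TCE mouse 2 was barely above control mouse 2, and only TCE mouse 3 stood clear. The log2 fold change of 0.24 ± 0.14 (SE) corresponds to 1.18-fold, with a 95% interval of 0.942 to 1.48 (limma adjusted p = 0.413), and was 0.13 without TCE mouse 3 (limma adjusted p = 0.607).

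Trp53inp1, a stress-induced nuclear protein that promotes p53 activity and autophagy, showed the next largest difference after Cdkn1a. On the brighter of its probes the log2 signal was 10.86, 10.78 and 10.43 in the control mice and 12.16, 11.52 and 11.12 in the TCE mice. Here TCE mouse 1 was the highest and TCE mouse 3, which had the most Cdkn1a, was the lowest. The log2 fold change was 0.92 ± 0.28 (SE), or 1.89-fold with a 95% interval of 1.19 to 3.01 (limma adjusted p = 0.166). The second probe, in another stretch of the same transcript on chromosome 4, had 6.86, 7.08 and 7.37 in controls and 8.33, 8.24 and 7.56 in TCE mice. Its log2 fold change of 0.94 (limma adjusted p = 0.125) was close to the first, with TCE mouse 3 again the lowest.

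Phlda3, which competes with Akt for membrane lipid and dampens Akt signalling, had log2 signals of 7.29, 7.40 and 7.30 in the control mice and 7.53, 8.04 and 7.60 in the TCE mice. The groups were apart, with TCE mouse 2 well above the rest. The log2 fold change was 0.39 ± 0.16 (SE, limma adjusted p = 0.279), and 0.23 without TCE mouse 2 (limma adjusted p = 0.360). Aen, an exonuclease that enhances apoptosis, had the smallest SD among control mice of the 10 genes, 0.017, at 12.41, 12.40 and 12.43 in the control mice and 12.58, 12.73 and 12.75 in the TCE mice. Its log2 fold change was 0.28 ± 0.11 (SE), or 1.21-fold with a 95% interval of 1.01 to 1.45 (limma adjusted p = 0.253). A second Aen probe, which overlaps the first in all but 10 bases, gave 0.20 (limma adjusted p = 0.421).

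Zmat3, a zinc finger RNA-binding protein and p53 target, was the exception among the 6. It had 7.78, 7.94 and 7.74 in the control mice and 7.78, 7.89 and 7.51 in the TCE mice. The groups overlapped and the log2 fold change was -0.09 ± 0.14 (SE), with a 95% interval of -0.43 to 0.25 (limma adjusted p = 0.772).

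The other Cip/Kip inhibitors were not higher in TCE liver. Cdkn1b, which holds resting cells out of the cycle and is controlled largely at the level of the protein, had log2 signals of 10.50, 10.48 and 10.70 in the control mice and 10.30, 9.78 and 10.35 in the TCE mice. All TCE mice were below all controls, TCE mouse 2 by the most. The log2 fold change was -0.42 ± 0.18 (SE, 95% interval -0.86 to 0.02, limma adjusted p = 0.301), and -0.24 without TCE mouse 2 (limma adjusted p = 0.399). A second Cdkn1b probe, at 3.99 to 4.92, was well above background on 1 array only and was not tested. Cdkn1c, an imprinted gene best known from development, had 8.04, 7.69 and 7.75 in the control mice and 7.57, 8.09 and 7.30 in the TCE mice. These groups overlapped, and the log2 fold change was -0.17 ± 0.22 (SE, 95% interval -0.72 to 0.37, limma adjusted p = 0.727).

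**Figure D2:**
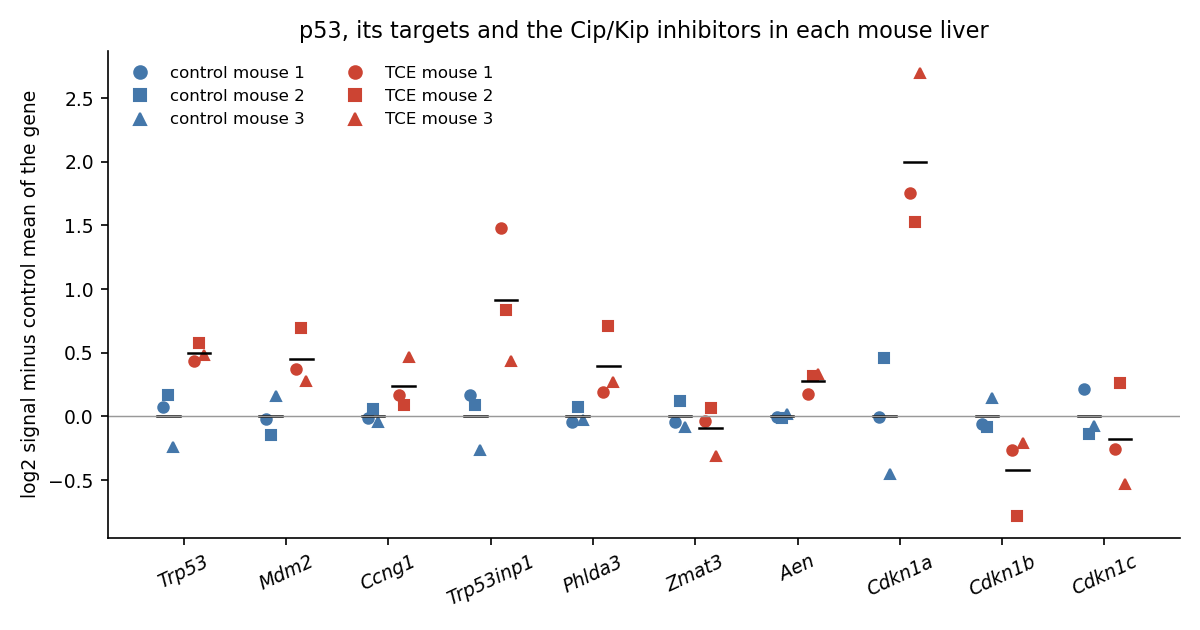
Each point is the log2 signal of a gene in 1 mouse minus the mean of its control mice (y axis), for p53, 6 of its targets and the Cip/Kip inhibitors (x axis), with blue for control, red for TCE and a black bar for the group mean. Cdkn1a departs from its control mean by 1.53 to 2.70 in the TCE mice, and the next largest departure is 1.48, that of Trp53inp1 in TCE mouse 1.

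Across the 10 genes, 0 were past the threshold, against 1.30% of all 13288 genes tested that were called higher and 0.429% that were called lower. By the test of the study's methods, without adjustment, 1 was past the same fold, Cdkn1a. By that test 411 of all 13288 genes were past it, counting higher and lower genes together. At an unadjusted limma p of 0.05 or less, 5 of the 10 were higher (Cdkn1a, Trp53, Mdm2, Trp53inp1 and Aen) and 0 lower, where 12.0% of all genes were higher and 7.10% lower. In 7 of the 10 every TCE mouse lay above every control, against 17.1% of all genes, and in 1, Cdkn1b, every TCE mouse lay below, against 10.8%. Only Cdkn1a differed by 2-fold or more by its fitted change, as 2.63% of all genes did upwards. Without Cdkn1a the median log2 fold change of the other 9 genes was 0.28, beside 0.02 over all genes, and it was 0.24 to 0.33 with any 1 mouse left out. The count of 5 was less steady. It was 3 without any 1 of the control mice or without TCE mouse 2, 3 with slide as a block, 4 without TCE mouse 3 and 6 without TCE mouse 1.

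**Figure D3:**
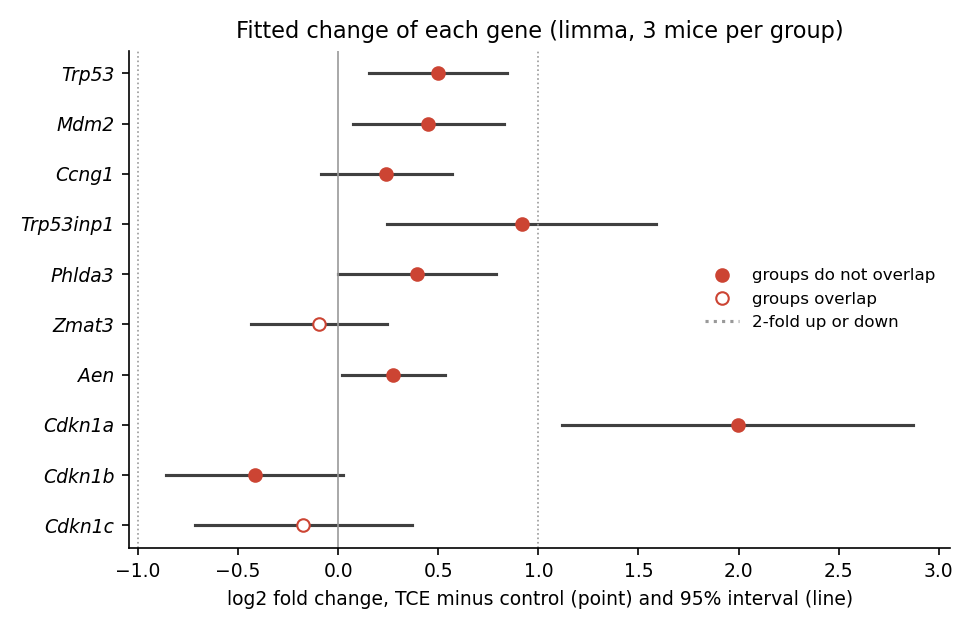
Points give the fitted log2 fold change (x axis, TCE minus control) and lines its 95% interval for each gene (y axis), with filled points where the groups did not overlap and dotted lines at 2-fold. The interval stays within 2-fold for 8 of the 10 genes, all except Cdkn1a and Trp53inp1, and for 10673 of all 13288 genes tested.

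The size of the Cdkn1a difference was set against each of the other 9 genes within the same mice. The Cdkn1a log2 fold change exceeded theirs by 1.08 (Trp53inp1, standard error 0.63) to 2.41 (Cdkn1b, standard error 0.42). Against Mdm2 the excess was 1.54 ± 0.58 (SE), and against Ccng1 1.75 ± 0.34 (SE). For 8 of the 9 genes the excess was greater in every TCE mouse than in every control mouse. Their exact permutation p was 0.1, the smallest 3 mice per group allow (0.1125 after Benjamini-Hochberg adjustment over the 9 comparisons). As Cdkn1a by itself was higher in every TCE mouse, such an excess can arise against any gene that differed little. The share of all genes with such an excess was not computed. Against Trp53inp1 the mice overlapped (exact permutation p = 0.2, adjusted 0.2). The 95% interval stayed under 2-fold in both directions for 8 of these 9 genes, and for 10673 of all 13288 genes. The fitted Cdkn1a difference of 3.99-fold lay outside the interval of each of the 9 genes. For Trp53inp1 the interval reached 3.01-fold, so that it overlapped the Cdkn1a interval of 2.17 to 7.32.

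The order of the TCE mice differed between genes. Cdkn1a was highest in TCE mouse 3, at 2.70 above its control mean, then in TCE mouse 1 at 1.75 and in TCE mouse 2 at 1.53. The median departure of the 6 other targets was 0.18 in TCE mouse 1, 0.51 in TCE mouse 2 and 0.31 in TCE mouse 3, so that the mouse with the least Cdkn1a had the highest median of the targets. Of the 6 targets, 1 was highest in TCE mouse 1, 3 in TCE mouse 2 and 2 in TCE mouse 3. Ccng1 and, among the Cip/Kip genes, Cdkn1b had the same order of TCE mice as Cdkn1a. In each TCE mouse 5 of the 6 targets were above the highest control, the same 5 whose groups did not overlap. Over all genes, 17.1% had every TCE mouse above every control. With 3 mice in a group no correlation was computed.

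The genes most like Cdkn1a over the 6 mice were sought among the other 13287 by the root mean square difference of the departures from the control mean. The closest were Akr1b7, an aldo-keto reductase, at 0.25, Defb1, a defensin, at 0.31, Treh, which cleaves trehalose, at 0.35, Tmem43, a membrane protein of the nuclear envelope, at 0.37 and Hebp2, a heme-binding protein, at 0.38. None of the 5 is on the lists of p53 genes used here. Akr1b7 was at least 3.65-fold higher, with no control mouse well above background (limma adjusted p = 0.0158), and the other 4 had log2 fold changes of 1.72 to 2.10 with limma adjusted p from 0.0103 to 0.0237. Genes picked for likeness to Cdkn1a in these same mice must be higher in TCE liver. These changes and p-values therefore describe the choice and are no separate result. With 1 mouse left out, each of the 5 was called in 2 to 4 of the 6 fits, with adjusted p up to 0.103. With normexp the log2 fold changes of Akr1b7, Defb1, Treh and Hebp2 were 0.70, 0.91, 1.02 and 1.12, and that of Tmem43 was 1.79. The place of Akr1b7 rests on control signals that were not well above background. By this measure Trp53inp1 stood at place 440, Trp53 at 821, Mdm2 at 1586, Phlda3 at 1698, Ccng1 at 2164, Aen at 2238 and Zmat3 at 8859.

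**Figure D4:**
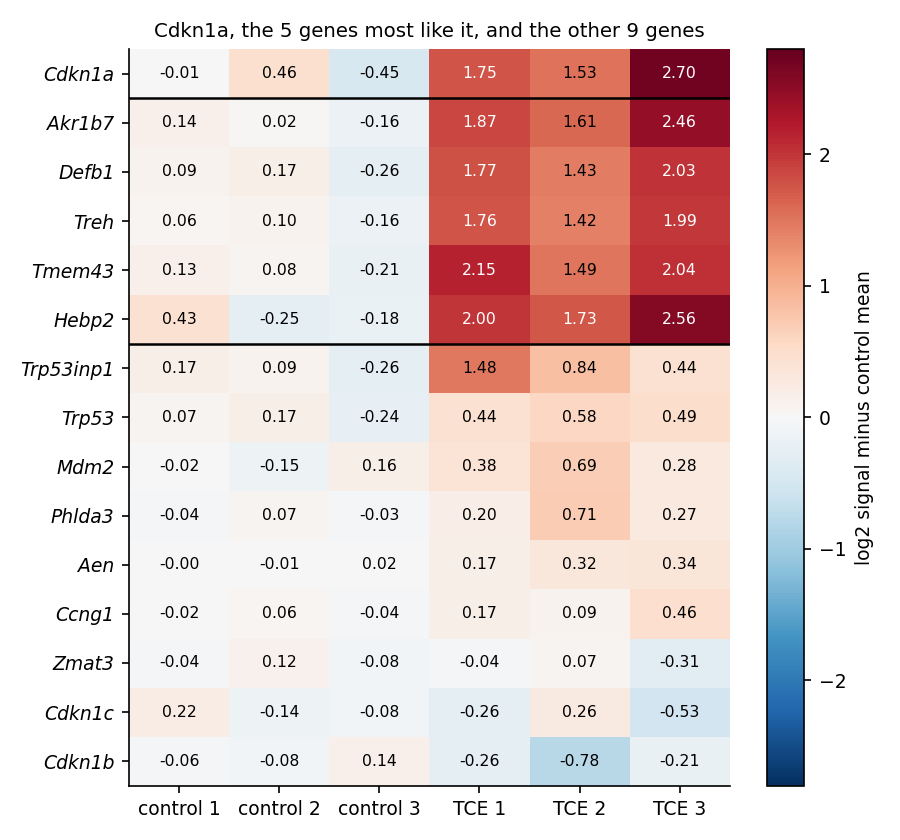
Each cell is the log2 signal of a gene (rows) in 1 mouse (columns) minus the mean of its control mice, on a scale from blue (lower) to red (higher). The top row is Cdkn1a, the next 5 are the genes most like it, with departures of 1.42 to 2.56 in TCE mice, and the lower 9 are p53, its targets and the other Cip/Kip genes.

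Other known p53 targets were looked at through a list of 32 further genes, of which 24 were detected. Of these 18 were higher and 6 lower by their fitted change, with a median log2 fold change of 0.19. Over all 13288 genes 7059 were higher and 6229 lower, with a median of 0.02. That is the background for the counts of higher and lower genes in this list and in the lists that follow. Past the threshold, 2 rose and 0 fell, against 1.30% and 0.429% of all genes. Gdf15, a secreted stress hormone of the TGF-beta family that other stress pathways also induce, was 9.02, 9.28 and 8.47 in the control mice and 11.52, 12.27 and 11.40 in the TCE mice. It rose by 2.81 ± 0.30 (SE) on the log2 scale (limma adjusted p = 0.0123) and was highest in TCE mouse 2. Without control mouse 1 it had 2.86 (limma adjusted p = 0.0546). Pmm1, a phosphomannomutase, was 8.16, 7.87 and 8.34 in the control mice and 9.17, 9.42 and 9.30 in the TCE mice, with a log2 fold change of 1.18 (standard error 0.16, limma adjusted p = 0.0249). Its call was lost in each of the 6 fits without 1 mouse, with adjusted p from 0.0552 to 0.0880. At an unadjusted limma p of 0.05 or less 8 of the 24 were higher and 1 lower, against 12.0% and 7.10% of all genes, and in 10 every TCE mouse lay above every control, against 17.1%. Among the rest, the largest fitted change was that of Plk2, a polo-like kinase, at -1.23 ± 0.53 (SE, limma adjusted p = 0.293), with 7.03, 6.80 and 6.07 in controls and 5.63, 4.30 and 6.30 in TCE mice, of which 2 arrays were well above background. It had -0.67 without TCE mouse 2 and -0.50 with normexp (limma adjusted p 0.387 and 0.206).

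The targets of this list with known roles in cell death and DNA repair included genes with and without overlap between the groups. Bax and Bbc3 (Puma), which permeabilize mitochondria and so start apoptosis, had log2 fold changes of 0.16 (95% interval -0.18 to 0.51) and -0.42 (95% interval -0.92 to 0.08). For Ddb2 and Xpc, which recognize DNA lesions, they were 0.10 (95% interval -0.26 to 0.45) and 0.19 (95% interval -0.12 to 0.51). Gadd45a, a growth arrest gene, had 0.23 with a 95% interval of -0.42 to 0.89. Fas, the death receptor, had 0.81 ± 0.15 (SE, limma adjusted p = 0.0622), and its groups did not overlap, with 10.56, 10.55 and 10.67 in control and 11.64, 11.15 and 11.41 in TCE mice. Perp, a membrane protein that takes part in apoptosis, had 0.38 ± 0.13 (SE, limma adjusted p = 0.203), and Polk, a DNA polymerase that copies past lesions, had 0.83 ± 0.33 (SE, limma adjusted p = 0.261). The groups did not overlap for either gene, but for Polk only 2 of the control arrays were well above background. These 8 genes were chosen for their roles after their values were seen.

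The list of p53 and its regulators held 16 genes, Trp53 and Mdm2 among them, of which 14 were detected and 0 were past the threshold. Of these 9 were higher and 5 lower, 5 higher and 1 lower at an unadjusted limma p of 0.05 or less, against 12.0% and 7.10% of all genes, with a median of 0.16. The largest fitted changes were 0.52 for Trp63, a p53 homologue, 0.50 for Trp53 and 0.49 for Ppp1r13l, an inhibitor of p53 (limma adjusted p 0.148 to 0.252). Atm, the kinase that signals DNA breaks to p53, was the 1 lower gene, with a fitted change of -0.27 (limma adjusted p = 0.277).

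**Figure D5:**
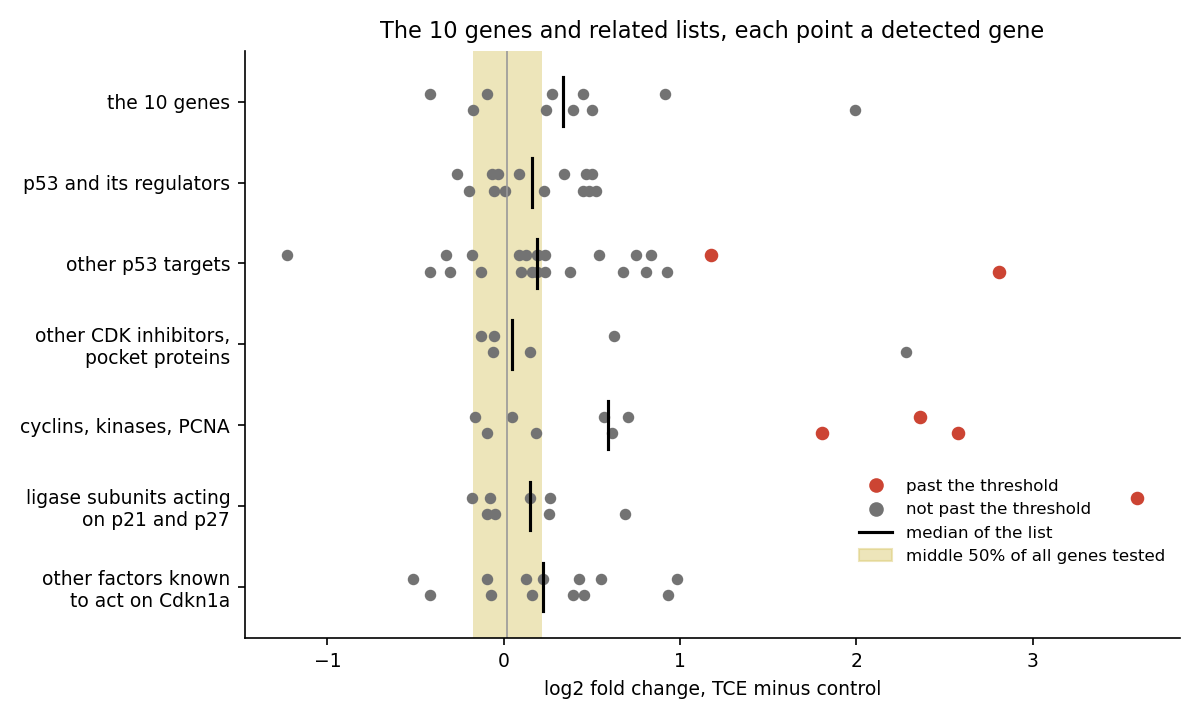
Each point is the log2 fold change of a detected gene (x axis, TCE minus control) in the 10 genes and in 6 related lists (y axis), with red points past the threshold, black bars at the median of a list and a band over the middle 50% of all genes tested (-0.18 to 0.21). The 6 red points on the right belong to other p53 targets, to cyclins and kinases and to the ligase subunits.

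Several of the partners that Cip/Kip proteins bind were past the threshold. Of 12 cyclins, cyclin-dependent kinases and PCNA, 10 were detected, 8 were higher and 2 lower, with a median of 0.59. Of these, 3 rose past the threshold, against 1.30% of all genes. All 3 were detected through the TCE mice only, as fewer than 3 control arrays were well above background. With only probes well above background on every array, these 3 probes were not tested. Ccna2, the cyclin of S phase, was 4.85, 4.82 and 5.36 in the control mice and 7.40, 7.43 and 7.93 in the TCE mice, a log2 fold change of 2.58 ± 0.22 (SE, limma adjusted p = 0.00544), although only 2 of the control arrays were well above background. Ccnb1, the mitotic cyclin, was 3.98, 4.90 and 5.03 in the control mice and 6.53, 7.40 and 7.07 in the TCE mice. It was at least 4.54-fold higher, with no control array well above background (limma adjusted p = 0.0302). Cdk1, the mitotic kinase, had a log2 fold change of 1.81 ± 0.30 (SE, limma adjusted p = 0.0440), with 2 control arrays well above background. Leaving out any 1 mouse lost the call of Ccnb1 (adjusted p 0.0619 to 0.103), and for Cdk1 any mouse but control mouse 2 did (adjusted p up to 0.145), while Ccna2 was called in all 6 such fits. With normexp the log2 fold changes of Ccna2, Ccnb1 and Cdk1 were 1.38, 0.86 and 0.80. PCNA, the replication clamp that p21 also binds, had 0.18 with a 95% interval of -0.11 to 0.48.

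Among 10 subunits of the ubiquitin ligases that act on p21 and p27, 9 were detected, 5 were higher and 4 lower, with a median of 0.15. Cdc20, the activator of the anaphase-promoting complex, rose past the threshold. It was 5.33, 5.92 and 6.18 in the control mice and 8.92, 9.52 and 9.76 in the TCE mice, a log2 fold change of 3.59 ± 0.30 (SE, limma adjusted p = 0.00508), and it was called in all 6 fits without 1 mouse. Cks1b, which helps the ligase bind p27, had 0.69 (limma adjusted p = 0.0740), and Cul4b, a scaffold, had 0.26 (limma adjusted p = 0.284). Skp2, the subunit that recognizes p27, had -0.09 with a 95% interval of -0.54 to 0.36.

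Of 8 other cyclin-dependent kinase inhibitors and pocket proteins, 6 were detected, 3 higher and 3 lower, and 0 were past the threshold, with a median of 0.05. Cdkn3, a phosphatase that acts on cyclin-dependent kinases, had no control array well above background and was at least 2.71-fold higher (limma adjusted p = 0.0616). Rbl1 and Rbl2, relatives of the retinoblastoma protein, had log2 fold changes of 0.62 and 0.15 (limma adjusted p 0.320 and 0.578), and Rbl1 had 0.40 to 0.95 with 1 mouse left out and 0.27 with normexp. Among 16 transcription factors known to act on Cdkn1a apart from p53, 13 were detected, 9 higher and 4 lower, 0 past the threshold, with a median of 0.22. The largest fitted changes were 0.98 for Cebpb, a factor of the acute phase, 0.93 for Klf6, a zinc finger factor, and 0.55 for Egr1, an immediate early gene (limma adjusted p 0.140, 0.212 and 0.715). Egr1 varied more between mice of 1 group, with SDs of 0.95 and 1.13, than between groups.

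Markers of the cell types of liver were read in the same mice. All 10 hepatocyte markers were detected, and their mean log2 signal was 16.58 to 16.70 in control and 16.51 to 16.65 in TCE mice. The 6 stellate cell markers were all detected, with means of 7.74 to 8.16 in control and 7.15 to 7.63 in TCE mice, and 3 of the 4 smooth muscle markers with 7.76 to 8.38 and 7.15 to 7.66. For both lists every TCE mouse lay below every control, but in each this separation was lost without 1 marker. That marker was left out here after the values were seen. Of the 6 stellate cell markers 5 were lower and 1 higher, with a median log2 fold change of -0.29. Without Cnn1 (log2 fold change -2.36, limma adjusted p = 0.114), which had no TCE array well above background, the other 2 smooth muscle markers had means of 9.18 to 9.65 in control and 9.24 to 9.93 in TCE mice. Without Lrat (log2 fold change -1.35, limma adjusted p = 0.0677), the other 5 stellate cell markers had 7.58 to 8.17 and 7.17 to 7.89. The 4 of 6 neutrophil markers detected had means of 7.73 to 8.29 and 8.24 to 8.73, and the 7 Kupffer cell and macrophage markers, all detected, 10.34 to 10.54 and 10.21 to 10.37. The 6 endothelial markers, the 3 of 6 bile duct markers and the 5 of 10 lymphocyte markers detected overlapped between the groups in their means. None of the markers of these 8 lists was past the threshold, and the part of any of them in the values above was not tested.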

How the data were processed

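The authors labelled liver RNA of 6 mice, 1 array each, and read the spots with Agilent Feature Extraction 10.7.1.1. The deposited scanner files give for each spot a background-subtracted processed intensity, raw intensities and flags. A table the authors deposited gives quantile-normalized log2 group means. It served for gene symbols and mm9 positions and as an alternative, and 6 columns of flags, whose names did not settle the mouse, were not used. Group means from the scanner files lay within 0.01 of the deposited control means for 99.99% of probes.

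Control spots and outlier spots were left out. Processed intensities were put on the log2 scale, spots of a probe were averaged, and arrays were quantile normalized. Detected probes were fitted with limma 3.58.1 (lmFit and eBayes, group as the only factor) in R 4.3.3 with the data.table package (version 1.17.8). The limma fit was also run on simulated arrays built from the means and spread of the real probes. Where a group had no array well above background, a lower limit replaced the fold: the other group's mean against, per array, the higher of the lowest signal well above background and the probe's own. The precision is limited by 3 arrays per group.

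The text names the 10 genes with every probe; from each related list the genes past the threshold or, where fewer than 3 were, up to 3 detected genes with the largest fitted changes; and the 5 genes most like Cdkn1a. Genes named outside the rule were chosen after their values were seen. The 10 genes, the lists and the tests were chosen with earlier results of these data known. Alternatives were another normalization, normexp (offset 50), other filters, outlier spots kept, the mean over a gene's detected probes, the deposited means, replicate and slide blocks, another variance model, the methods' t-test, unadjusted limma and each mouse left out. The count at an unadjusted p was added to these after the data were seen.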

Additional observations from a re-analysis of the deposited data

How the results depend on the processing

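With 3 arrays per group, the fitted change of each of the 10 genes kept its direction under every alternative run with all 6 mice. Leaving out 1 mouse gave Cdkn1c -0.39 to 0.0018, Zmat3 -0.17 to 0.0134 and Egr1 -0.025 to 1.10; these 3, none of them called, changed sign without TCE replicate 3. Cdkn1a, with a log2 fold change of 1.99 (adjusted p = 0.0568), was past the threshold with normexp (1.57, adjusted p = 0.0382), with the trend and robust variance model (1.99, adjusted p = 0.0354) and by the methods' t-test without adjustment, and its adjusted p was highest, 0.204, with no filter on dim probes. The count of the 10 genes past the threshold was therefore 1 instead of 0 in those 3 settings, and 5 with unadjusted limma and no minimum fold. With 1 mouse left out, 3 to 6 genes instead of 5 were higher at an unadjusted p, and 3 were with slide as a block. Of all detected probes 321 were past the threshold, 114 to 245 with 1 mouse left out, 96 with no filter, 63 with the replicate block, 177 with the slide block, 594 and 35 by the methods' t-test before and after Benjamini-Hochberg adjustment, and 4071 with unadjusted limma and no minimum fold. The list genes past the threshold, the 10 genes left aside, were 6, 2 to 4 with 1 mouse left out and 2 with no filter. They were 3 with probes well above background on every array, 3 with the slide block and 0 by the adjusted methods' t-test. At an unadjusted limma p of 0.05 or less there were 26, where 12.0% of all genes were higher and 7.10% lower. Over the detected probes, mice with the same replicate number did not deviate together (r = 0.090, 0.0067 and -0.092). Mice with different numbers had r of -0.113 to 0.108. A correlation over all probes cannot exclude a pairing that acts on some genes. With the replicate block Cdkn1a had 1.99 (adjusted p = 0.192), and 0 of the 10 genes were past the threshold. The cause of these shifts was not tested.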
